A study of Homo sapiens with 12 samples.

Results

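The genes described here are 10 that mark endothelial cells, the cells that line blood vessels: PECAM1, CDH5, TIE1, ENG, EGFL7, ERG, ESAM, CLDN5, MCAM and VWF. They were chosen by name, as the rows of the deposited count table that carry these symbols, and they are 10 of its 51141 symbols. CLDN5 was listed at 0 in every library, so 9 of the 10 passed the filter on low counts, among 14447 genes tested.

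RNA sequencing of poly(A) RNA was done in EA.hy926 cells, a human line made by fusing an umbilical vein endothelial cell with a cell of the lung carcinoma line A549. The line is 1 hybrid clone, so it stands for endothelium only in part, and every group shares that background and the same serum-containing medium. The 4 groups hold 3 libraries each. Control cells had no TEPA and stayed at normal oxygen, whose percentage the labels do not give. Hypoxia cells had no TEPA and spent 8 h in 1% oxygen. TEPA cells received the polyamine TEPA, which binds copper, at 50 µM for 16 h and then had 8 h at normal oxygen. TEPA+hypoxia cells received the same TEPA and then had 8 h in 1% oxygen. The labels number the libraries but do not say that they are separate cultures, so every p-value below measures only the spread between these libraries.

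Endothelial cells hold together through adherens and tight junctions built from adhesion proteins such as VE-cadherin, PECAM-1, ESAM and claudin-5. Their identity is kept by transcription factors of the ETS family, ERG among them, which bind a GGAA core in the promoters and enhancers of many endothelial genes. TIE1 and endoglin are receptors or co-receptors of the angiopoietin and TGF-beta/BMP pathways, and EGFL7 and von Willebrand factor are secreted. Hypoxia acts largely through HIF-1, a transcription factor that binds a short ACGTG core, and the design asks how a copper chelator alters the response to low oxygen.

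Counts were scaled to CPM (counts relative to the library total times its TMM factor), and the totals lay between 13406858 and 24778944 counts per library. The libraries hypoxia 2 and 3 differed from the rest: their TMM factors were 0.772 and 0.838 against 1.03 to 1.08, and they scored 126 and 105 on a first principal component that ran from -51.6 to 11.8 elsewhere. The 10 genes summed to 6683 and 5980 CPM in these libraries and to between 3303 and 3977 CPM in the other 10, hypoxia 1 included at 3827 CPM. ENG (3390 and 2775 CPM) and EGFL7 (1715 and 1440 CPM) made up most of the sum in hypoxia 2 and 3. ESAM was also highest in these libraries, while PECAM1, CDH5 and ERG were lowest in them. The summed epithelial markers were also higher there, at 18274 and 15649 CPM against 5545 to 7786 CPM. So was the sum of mesenchymal and mural markers (6569 and 6584 CPM, elsewhere 5146 to 5605 CPM). VIM, which encodes vimentin, made up most of the latter at 6134 and 6108 CPM against 3882 to 4838 CPM, while FN1 was lower in these libraries at 188 and 236 CPM against 446 to 854 CPM. Leukocyte markers reached 205 and 191 CPM in these libraries and lay between 149 and 185 CPM elsewhere. Of the 19 epithelial markers 8 were tested, and CDH1, CLDN3, ESRP1, SFTPA1 and NKX2-1 were listed at 0. In the leukocyte list PTPRC, MS4A1 and NKG7 were among those listed at 0, and in the mesenchymal list SNAI2, TWIST1 and COL3A1. The part of these markers in the results below was not tested, and in bulk RNA fewer cells of a type cannot be told apart from less RNA per cell. Results on the 10 genes and on gene lists that use the hypoxia group are therefore given with and without hypoxia 2 and 3. The fit without them, also called the value from hypoxia 1 alone, rests on 1 hypoxia library whose spread is assumed to be that of the other groups.

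Detection of the markers is given here as a description. It cannot check the endothelial label, since the 10 genes were chosen as markers of these cells. Of the 10 genes 9 passed the filter on low counts, and so did 29 of a list of 40 other endothelial markers, NOS3 and KDR among them. Of all 51141 symbols 14447 passed it. The epithelial marker KRT7 had a mean of 3979 CPM in control, against 963 CPM for ENG. In that list EMCN, SELE, APLNR, RAMP2, NOSTRIN, VCAM1, GJA4 and GJA5 were listed at 0. A 0 in this table was not read as a silent gene, since 25013 symbols had no count in any library.

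The sequences shown are those tied to ENG and EGFL7, which had the largest differences in hypoxia with all libraries and no correction for GC content, and they come from RefSeq on GRCh38.p14. The table of promoters held windows for 5 of the 10 genes, 9 windows in all, because EGFL7 has 2 listed starts and ERG 4. Both strands of each 250-base window before a start were searched for the ETS core GGAAGT, which reads as ACTTCC on the other strand, and for the ACGTG core, which reads as CACGT there. The matches of the 2 motifs do not overlap. GGAAGT was found in 2 of the 9 windows and in 19.5% of 35116 windows of all genes; ACGTG was found in 1 of the 9 and in 18.5% of all. Capitals mark the matches. The ENG stretch is chr9:127854757-127854908 on the minus strand, the part of the window outside annotated exons, and its match starts 115 bases before the start. The EGFL7 stretch is chr9:136662666-136662915 on the plus strand, before the downstream start, with CACGT at -112 and GGAAGT at -80.
ENG promoter: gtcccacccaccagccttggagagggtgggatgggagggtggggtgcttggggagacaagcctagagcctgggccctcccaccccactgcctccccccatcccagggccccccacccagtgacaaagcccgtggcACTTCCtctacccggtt
EGFL7 promoter: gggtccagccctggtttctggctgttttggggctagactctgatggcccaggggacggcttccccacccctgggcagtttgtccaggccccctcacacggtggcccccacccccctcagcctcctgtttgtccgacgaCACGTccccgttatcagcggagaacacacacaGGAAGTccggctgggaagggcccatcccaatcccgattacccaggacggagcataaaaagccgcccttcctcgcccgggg
A match is a string of letters and not a bound site. EGFL7 also carries the microRNA gene MIR126 in an intron, and miR-126 is the best known endothelial microRNA. Its mature arms lie at chr9:136670616-136670636 and chr9:136670653-136670674 on the plus strand, and capitals mark the seed, bases 2 to 8, which pairs with target messages.
hsa-miR-126-5p: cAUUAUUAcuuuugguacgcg
hsa-miR-126-3p: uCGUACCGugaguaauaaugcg
The arms share no seed, so their seeds would pair with different target sites.

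Per kilobase of transcript, which allows levels of different genes to be compared, the order in control was ENG (315 CPM per kb), EGFL7 (216), CDH5 (166), ESAM (117), TIE1 (107), PECAM1 (88.0), ERG (33.8), MCAM (23.7) and VWF (0.950). The secreted clotting protein gene VWF, often used as a defining endothelial marker, was thus the lowest of those detected. In hypoxia the order of the first 4 became ENG (807 CPM per kb), EGFL7 (593), ESAM (172) and TIE1 (106), and CDH5 followed at 99.4. Hypoxia 1 by itself kept the control order of all 9, with ENG at 404, EGFL7 at 294, CDH5 at 140.3, ESAM at 139 and TIE1 at 108 CPM per kb. In TEPA and in TEPA+hypoxia CDH5 stood above ESAM, as it did in control.

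**Figure D1:**
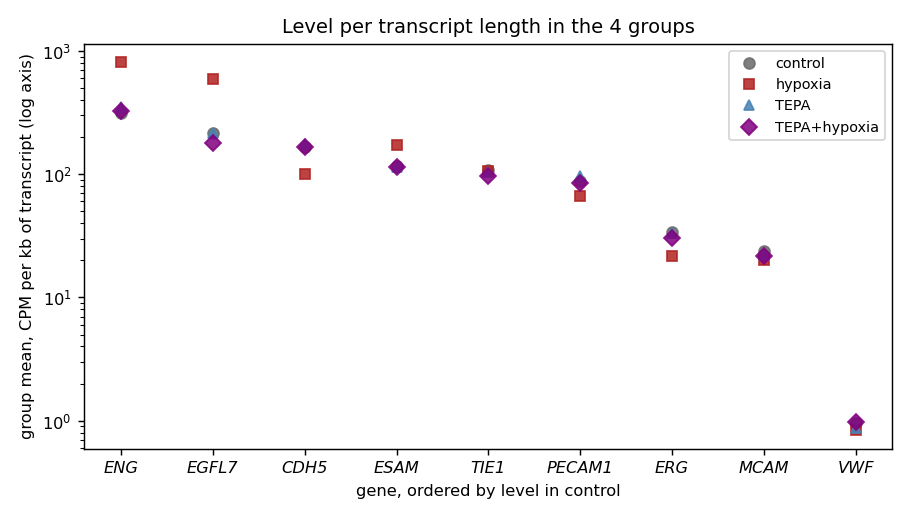
Group mean of each detected gene in CPM per kb of transcript on a log axis, with genes ordered by their level in control and 1 symbol per group. Control, TEPA and TEPA+hypoxia lie close together for every gene, and the hypoxia means of ENG and EGFL7 stand above them at 807 and 593 CPM per kb, with hypoxia 1 by itself at 404 and 294.

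Hypoxia against control asks what low oxygen did in cells without the chelator. Of the 9 genes tested, 3 rose (ENG, EGFL7 and ESAM) and 3 fell (PECAM1, CDH5 and ERG), so no common direction was seen. Under a correction for GC and transcript length, described further on, PECAM1 and ESAM took the opposite sign without passing the test. Of all genes tested, 29.4% rose and 27.8% fell by the same rule, so a share of 3 of 9 in each direction is near the background. When only the control and hypoxia libraries were fitted, 0 of the 9 and 0 of all 13876 genes passed by edgeR, 6939 of all had an unadjusted p under 0.05, and the smallest adjusted p of any gene was 0.0582. The 9 genes had a median log2 fold change of -0.18, against -0.01 over all genes tested. Without hypoxia 2 and 3, the log2 fold changes were 0.36 for ENG, 0.44 for EGFL7 and 0.25 for ESAM. They were -0.28 for PECAM1, -0.24 for CDH5 and -0.29 for ERG, and all of these rest on 1 hypoxia library. The 6 genes called with all libraries were those whose 3 hypoxia libraries did not overlap the 3 control libraries. Such a gap was seen for 27.4% of all genes upward and 28.2% downward.

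Among the junction genes, PECAM1 (chromosome 17, 64319415 to 64413776), which encodes the adhesion protein CD31, stood at 593, 600.0 and 609 CPM in control 1 to 3. It stood at 494, 431 and 434 CPM in hypoxia 1 to 3, at 641, 675 and 656 CPM in TEPA 1 to 3, and at 561, 554 and 622 CPM in TEPA+hypoxia 1 to 3. The 3 hypoxia libraries lay below all others and the 3 TEPA libraries above all others, while TEPA+hypoxia overlapped control. In hypoxia PECAM1 fell by 0.41 on the log2 scale with an SE of 0.09 (edgeR adjusted p = 0.00601), but under the GC and length correction the value was 0.19 (adjusted p = 0.0915). Without hypoxia 2 and 3 it was -0.28 (adjusted p = 0.105).

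CDH5 (chromosome 16, 66366622 to 66404786) encodes VE-cadherin, the adhesion molecule of endothelial adherens junctions. It stood at 657, 669 and 728 CPM in control 1 to 3 and at 579, 274 and 377 CPM in hypoxia 1 to 3. The values were 773, 699 and 708 CPM in TEPA and 657, 672 and 726 CPM in TEPA+hypoxia. All 3 hypoxia libraries were below every other library, with hypoxia 2 the lowest, and the other 3 groups overlapped. CDH5 fell by 0.74 on the log2 scale in hypoxia with an SE of 0.20 (edgeR adjusted p = 0.0116) and had the same sign with the GC and length correction (-0.62, adjusted p = 0.0141). The value from hypoxia 1 alone was -0.24 (adjusted p = 0.155).

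ESAM (chromosome 11, 124752583 to 124762290), a tight junction adhesion molecule, went the other way. Its control libraries held 209.8, 202 and 229.8 CPM and its hypoxia libraries 254, 341 and 349 CPM. It stood at 216, 209.8 and 205 CPM in TEPA and at 212, 217 and 193 CPM in TEPA+hypoxia. Every hypoxia library was above every other library, and the other 3 groups overlapped. ESAM rose by 0.56 ± 0.12 (log2, SE; edgeR adjusted p = 0.00601) and stood at -0.092 (adjusted p = 0.271) with the GC and length correction, so its sign turned. From hypoxia 1 alone it was at 0.25 (adjusted p = 0.170).

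MCAM (chromosome 11, 119308529 to 119321521), the adhesion receptor CD146, held 78.0, 68.7 and 89.1 CPM in control and 76.3, 52.8 and 69.5 CPM in hypoxia. In TEPA it held 74.2, 72.0 and 72.4 CPM, and in TEPA+hypoxia 69.7, 72.0 and 73.1 CPM. The groups overlapped, with hypoxia 2 the lowest library. Its difference in hypoxia was -0.25 ± 0.14 (log2, SE; edgeR adjusted p = 0.137), and -0.32 with the GC and length correction (edgeR adjusted p = 0.0508). MCAM passed the test in 2 of 24 alternative settings, over which its value ran from -0.46 to -0.04. Leaving out hypoxia 1 was among these 2 (-0.39, edgeR adjusted p = 0.00793), and there 34.4% of all genes rose and 37.4% fell. Of its exon bases 6.86% also lie under exons of CBL on the other strand, and the strand setting of the counting is not given, so reads of the pair cannot be told apart there.

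CLDN5 (chromosome 22, 19523024 to 19527545), the claudin of endothelial tight junctions, was listed at 0 counts in all 12 libraries. If that 0 is a true count it allows up to 0.118 to 0.267 CPM per library, the level of 3 counts, for counting error only.

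The receptor gene TIE1 (chromosome 1, 43300993 to 43323108) showed the smallest difference in hypoxia of the 9. It stood at 409, 389 and 451 CPM in control and at 418, 388 and 425 CPM in hypoxia. It stood at 412, 399 and 395 CPM in TEPA and at 391, 392 and 340.0 CPM in TEPA+hypoxia. Hypoxia 2 and 3, which were far from control for ENG and CDH5, were within the control range or next to it here. The log2 difference was -0.02 ± 0.09 (SE; edgeR adjusted p = 0.853) and 0.00 without hypoxia 2 and 3, and with the GC and length correction TIE1 was called lower (-0.21, adjusted p = 0.0495).

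ENG (chromosome 9, 127815012 to 127854756) encodes endoglin, a co-receptor for TGF-beta and BMP ligands. It stood at 946, 827 and 1116 CPM in control 1 to 3 and at 1236, 3390.3 and 2775 CPM in hypoxia 1 to 3. It stood at 1069, 1111 and 1066 CPM in TEPA and at 1016, 1049.8 and 934 CPM in TEPA+hypoxia. All hypoxia libraries were above all others, hypoxia 1 only just above control 3. ENG rose by 1.36 ± 0.28 on the log2 scale, 2.56-fold (edgeR adjusted p = 0.00601), and by 0.86 with the GC and length correction (adjusted p = 0.00678). Without hypoxia 2 and 3 the value was 0.36 (adjusted p = 0.142). An antisense gene, AL162586.1, covers 7.95% of its exon bases.

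ERG (chromosome 21, 38380027 to 38661780), the ETS factor, held 164, 171 and 175 CPM in control and 139, 81.8 and 103 CPM in hypoxia. It held 168, 169 and 166 CPM in TEPA and 147, 148 and 162 CPM in TEPA+hypoxia. Its groups ran from TEPA and control, which overlapped, down through TEPA+hypoxia to hypoxia, with no overlap at either step. ERG fell by 0.65 on the log2 scale in hypoxia with an SE of 0.15 (edgeR adjusted p = 0.00675), but the value was -0.06 (adjusted p = 0.495) with the GC and length correction. From hypoxia 1 alone it was -0.29 (adjusted p = 0.112).

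EGFL7 (chromosome 9, 136658856 to 136672678), a secreted protein of the vessel matrix, held 438, 369.7 and 568 CPM in control and 624, 1715 and 1439.6 CPM in hypoxia. It held 442, 475 and 458 CPM in TEPA and 409.8, 408 and 329 CPM in TEPA+hypoxia. As for ENG, every hypoxia library was above every other library and hypoxia 1 was nearest to control. EGFL7 rose by 1.46 ± 0.29 on the log2 scale, 2.75-fold (edgeR adjusted p = 0.00601), and by 0.47 with the GC and length correction (adjusted p = 0.0101). From hypoxia 1 alone it was at 0.44 (adjusted p = 0.168).

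The row of MIR126, whose arms are printed above, held 28, 22 and 26 counts in control 1 to 3 and 35, 69 and 68 counts in hypoxia 1 to 3. It held 28, 19 and 29 counts in TEPA and 41, 34 and 22 counts in TEPA+hypoxia. Hypoxia 2 and 3 were again the highest. On the CPM scale the MIR126 row rose by 1.71 ± 0.37 (log2, SE, edgeR adjusted p = 0.00607), with 0.75 without those libraries. With the GC and length correction the row was at 2.02 (edgeR adjusted p = 0.00556), while EGFL7 went from 1.46 to 0.47. These libraries were made from poly(A) RNA, so the row counts reads over the hairpin's place in the EGFL7 intron and not the mature microRNA.

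VWF (chromosome 12, 5948874 to 6124770), the von Willebrand factor gene, held 8.33, 6.41 and 10.4 CPM in control and 6.86, 8.67 and 6.59 CPM in hypoxia. It held 8.39, 7.17 and 7.60 CPM in TEPA and 8.27, 9.0 and 8.61 CPM in TEPA+hypoxia. All groups overlapped, and control had the widest spread. The difference in hypoxia was -0.18 ± 0.18 (log2, SE; edgeR adjusted p = 0.402). It was -0.0036 with the GC and length correction (edgeR adjusted p = 0.989) and -0.29 from hypoxia 1 alone.

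**Figure D2:**
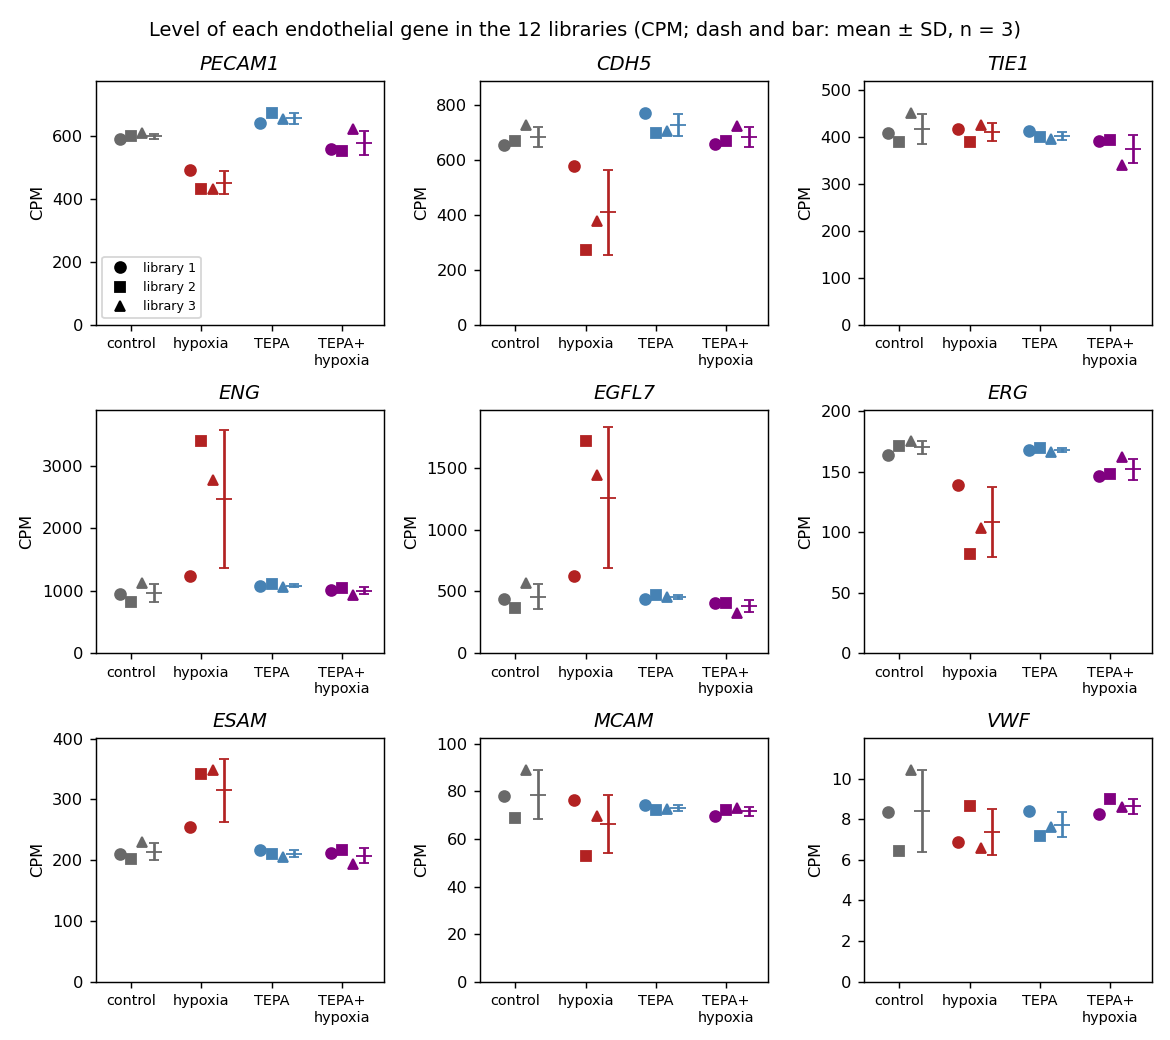
CPM of the 9 detected genes in the 12 libraries, 1 panel per gene, with a marker shape per library number and the mean ± SD (n = 3) as a dash with a bar; each axis starts at 0. The hypoxia libraries lie above all others for ENG, EGFL7 and ESAM and below all others for PECAM1, CDH5 and ERG, with hypoxia 1 nearest to control in each; with the GC and length correction PECAM1 and ESAM took the opposite sign.

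The 6 genes that differed in hypoxia split by the base composition of their transcripts. EGFL7 and ENG had 68.1% and 63.3% GC and ESAM 57.5%, while CDH5, PECAM1 and ERG had 54.5%, 49.3% and 46.4%. Across the 9 genes the Spearman correlation of the log2 fold change with GC content was 0.9, and 0.717 without hypoxia 2 and 3. It was 0.433 after the correction, which fits a spline of GC content and of transcript length in each library. Over 13004 genes the correlation was 0.532. These are descriptions across genes that share the same libraries. For single libraries against the control mean it was 0.381, 0.524 and 0.548 in hypoxia 1 to 3, and 0.485 in control 3 and -0.440 in control 2. Control libraries thus also differed from each other along GC content. Their opposite signs are partly forced, since the control mean includes them, and a rank correlation does not give the size of a trend. EGFL7, for example, differed from that mean by -0.31 and 0.31 (log2) in control 2 and 3 and by 1.90 in hypoxia 2. TIE1, with 60.8% GC, and VWF, with 58.5%, lay between ESAM and ENG in GC content and showed log2 differences of -0.02 and -0.18. The correction kept 3 of the 6 calls, ENG, EGFL7 and CDH5, added TIE1, and left 2 genes higher and 2 lower. Over all genes it changed 4254 higher and 4016 lower to 3486 and 2258, and scaling by library totals alone gave 2899 and 4833 with the median of all genes shifted to -0.24.

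**Figure D3:**
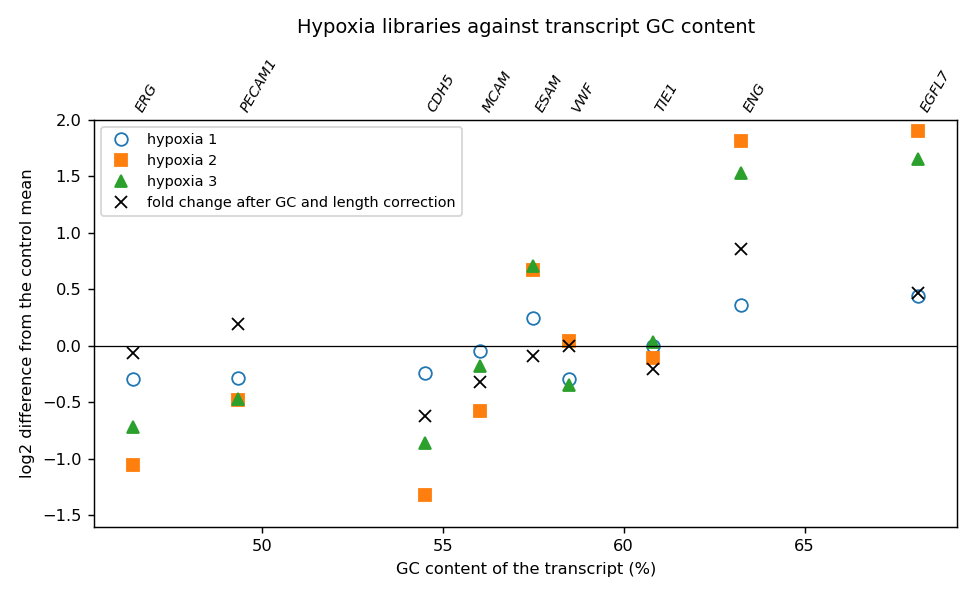
Log2 difference of hypoxia 1, 2 and 3 from the control mean for the 9 detected genes (y axis) against the GC content of the transcript in percent (x axis), with crosses for the fold change of hypoxia against control after GC and length correction. ENG and EGFL7 at the right lie highest and ERG, PECAM1 and CDH5 at the left lie below 0; the crosses for PECAM1 and ESAM lie on the other side of 0, at 0.19 and -0.092.

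TEPA against control asks what the chelator did at normal oxygen. None of the 9 genes passed the test in edgeR, DESeq2 or limma-voom, and 0 had an unadjusted p under 0.05. The background was also 0% of all genes higher and 0% lower, and 0% and 0.0263% without hypoxia 2 and 3. The differences ran from -0.12 ± 0.18 (log2, SE) for VWF to 0.17 ± 0.27 for ENG. These SEs use the spread of all 12 libraries, hypoxia 2 and 3 included, and not only that of control and TEPA. The common dispersion, a measure of that spread, was 0.0339, and 0.0085 without hypoxia 2 and 3. Without them VWF was at -0.12 and ENG at 0.16. PECAM1, whose TEPA libraries all lay above the control libraries, was at 0.13 ± 0.09 (edgeR adjusted p = 1.00).

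The comparison of TEPA+hypoxia with TEPA gives the response to low oxygen in cells that had the chelator. Again 0 of the 9 genes passed in edgeR, DESeq2 or limma-voom, against 0.0623% of all genes higher and 0.0346% lower by edgeR. An unadjusted edgeR p under 0.05 was seen for 0 of the 9 and for 1110 of all 14447 genes. The sign was negative for 8 of the 9, with a median of -0.10, where 7114 of all 14447 genes were negative with a median of 0.00. With the GC and length correction it was negative for 6 of the 9 and for 7376 of 13004 genes. Of the 9 genes, 5 had TEPA+hypoxia libraries all below the TEPA libraries: PECAM1, TIE1, ENG, EGFL7 and ERG. Among all genes 18% were lower without overlap and 12.5% higher without overlap. The largest differences were -0.26 ± 0.29 (log2, SE) for EGFL7 and -0.18 ± 0.09 for PECAM1 (edgeR adjusted p = 0.847 and adjusted p = 0.688). With the spread estimated from the other 10 libraries, PECAM1 was the 1 gene with an unadjusted p under 0.05 (-0.17, adjusted p = 0.124), while 1.32% of all genes rose and 0.842% fell.

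TEPA+hypoxia against hypoxia compares the same low oxygen with and without the chelator, and it shares the hypoxia libraries with hypoxia against control. PECAM1, CDH5 and ERG were higher by 0.35 ± 0.09, 0.74 ± 0.20 and 0.49 ± 0.15 (log2, SE; edgeR adjusted p = 0.00552, adjusted p = 0.00928 and adjusted p = 0.0162), but with the GC and length correction PECAM1 was lower (-0.34, adjusted p = 0.00953) and ERG stood at -0.16. ENG, EGFL7 and ESAM were lower, at -1.30 ± 0.27, -1.72 ± 0.30 and -0.60 ± 0.12, and the correction left ENG at -0.78 and EGFL7 at -0.68 and turned ESAM to 0.11. Over all genes 30.9% were higher and 30.6% lower, again near the share of 3 in 9. Without hypoxia 2 and 3 only EGFL7 passed (-0.70, adjusted p = 0.0256), with 7.98% of all genes higher and 7.17% lower. Among the calls with all libraries, ERG was lost without hypoxia 3 (0.46, adjusted p = 0.0562) and without TEPA+hypoxia 3 (0.45, adjusted p = 0.0575).

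The interaction subtracts the hypoxia response of untreated cells from that of TEPA-treated cells. It was lower than 0 for ENG (-1.47 ± 0.38, edgeR adjusted p = 0.0236), EGFL7 (-1.72 ± 0.41, adjusted p = 0.0236) and ESAM (-0.58 ± 0.17, adjusted p = 0.0268), with 21.5% of all genes lower and 17.3% higher. With the GC and length correction ENG and EGFL7 stood at -0.91 and -0.64 and were still called, ESAM turned to 0.17 without a call, and PECAM1 was called lower (-0.45, adjusted p = 0.0339). CDH5 was at 0.65 ± 0.29 (adjusted p = 0.0840) and ERG at 0.51 ± 0.22 (adjusted p = 0.0748), so for neither was the response shown to differ. The correction left CDH5 at 0.54 (adjusted p = 0.112) and turned ERG to -0.15 (adjusted p = 0.298). Without hypoxia 2 and 3 no gene was called, with 0% of all genes higher and 0% lower, and ENG, EGFL7 and ESAM stood at -0.46, -0.69 and -0.26. These calls also rested on single libraries of every group: all 3 were lost without control 1, control 2, hypoxia 3, TEPA 2 or TEPA+hypoxia 3 (0 genes called in each), and ESAM also without hypoxia 2, TEPA 1 or TEPA 3. Without hypoxia 1, 7 of the 9 were called, in a fit that also called 35.6% of all genes higher and 30.4% lower.

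**Figure D4:**
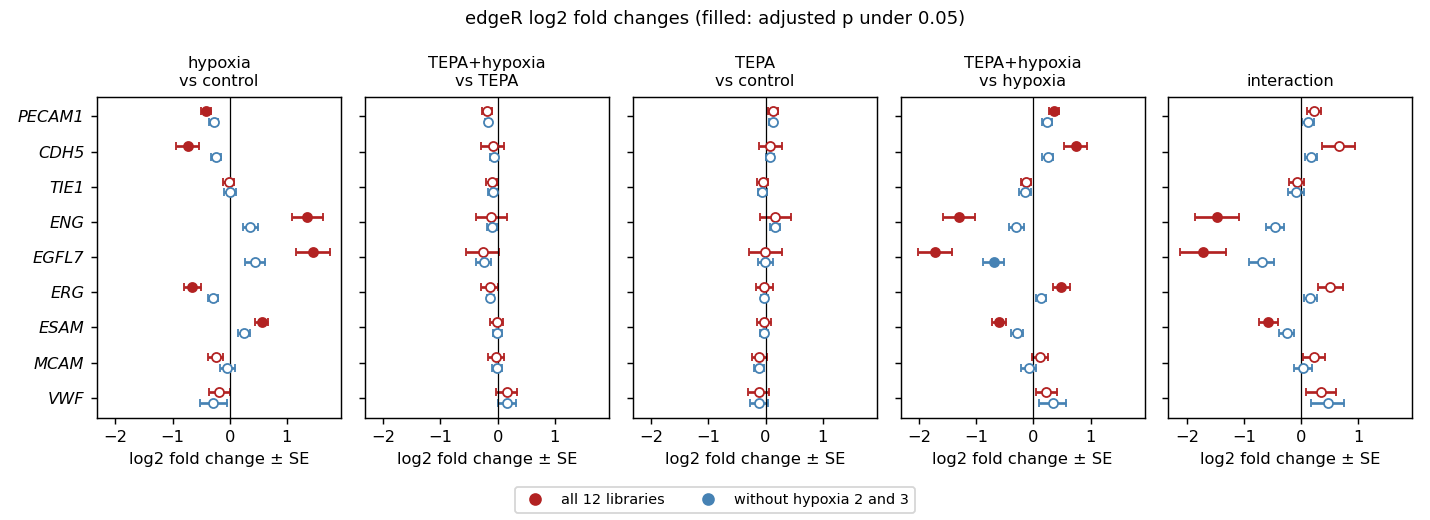
Log2 fold change ± SE (x axis) of the 9 detected genes (y axis) in the 5 comparisons, from edgeR with all 12 libraries and without hypoxia 2 and 3; filled points have an adjusted p under 0.05. Points in the panels of TEPA+hypoxia against TEPA and TEPA against control are open and lie between -0.26 and 0.17, and most calls in the other panels are lost when hypoxia 2 and 3 are left out; with the GC and length correction (not drawn) PECAM1 and ESAM change sign in hypoxia against control.

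The 9 genes did not vary together over the 12 libraries. Pearson correlations of their log2 CPM over 36 pairs ran from -0.949 to 0.983 with a median of 0.0223, and 18 were positive; all points share the same libraries. ENG, EGFL7 and ESAM formed one set (0.967 to 0.983 among them) and PECAM1, CDH5 and ERG the other (0.898 to 0.979). In the 10 libraries without hypoxia 2 and 3 the same sets had correlations of 0.773 to 0.891 and 0.736 to 0.846, and TIE1 correlated with EGFL7 at 0.830. ENG and CDH5, the most opposed pair over 12 libraries, were at -0.192 over 10.

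The genes most like PECAM1 by Pearson correlation over 12 libraries were NUMA1 (0.979), EPAS1 (0.978), which encodes HIF-2 alpha, and QRICH1 (0.976), and over 10 libraries they were GORASP2 (0.973), INTS1 (0.961) and TBC1D20 (0.955). For ERG they included SMPD4 (0.992) and MTND2P28 (0.990), and over 10 libraries SGK223 (0.971) and ARHGAP17 (0.958). VWF had COL4A2 (0.814), SCYL3 (0.730) and SELP (0.703), and over 10 libraries TXNL4B (0.855), IBA57 (0.819) and COL4A2 (0.801). COL4A2 encodes a basement membrane collagen and SELP encodes P-selectin.

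The counts of the related lists in hypoxia against control stand beside the same 29.4% of all genes higher and 27.8% lower, and in the GC-corrected fit beside 3486 higher and 2258 lower of 13004. Of 21 other endothelial transcription factors 19 were tested, and 2 rose and 9 fell (median log2 -0.44, and -0.25 without hypoxia 2 and 3). The GC and length correction left 1 higher and 8 lower (median -0.27). SOX18 and KLF2, a factor responsive to blood flow, rose by 1.42 ± 0.29 and 0.81 ± 0.16, while PROX1, a lymphatic factor, and GATA2 fell by 1.76 and 0.52. From hypoxia 1 alone these 4 stood at 0.59, 0.33, -1.41 and -0.36, and after correction at 0.33, -0.08, -0.91 and -0.75, with SOX18 and KLF2 no longer called. FLI1, the ETS factor closest to ERG, held 13.8, 15.5 and 15.5 CPM in control and 11.3, 1.47 and 1.69 CPM in hypoxia (-1.59 ± 0.55, edgeR adjusted p = 0.0283). FLI1 was thus lowest in hypoxia 2 and 3, and its value from hypoxia 1 alone was -0.41 (adjusted p = 0.237).

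Of 20 junction partners 18 were tested, and 3 rose and 9 fell (median log2 -0.98, and -0.19 without hypoxia 2 and 3). The correction left 1 higher and 7 lower (median -0.37). CTNNB1, the beta-catenin that binds the tail of VE-cadherin, was at -0.58 ± 0.16 (edgeR adjusted p = 0.0116), at -0.16 without hypoxia 2 and 3, and at 0.10 after correction. The scaffold gene TJP1 was at -1.20, ARHGAP29 at -1.36, and its partner in Rap1 signalling, RASIP1, at 1.07. From hypoxia 1 alone TJP1, ARHGAP29 and RASIP1 stood at -0.53, -0.65 and 0.47, and after correction they were still called at -0.48, -0.59 and 0.52. Among the 5 angiopoietin and Tie genes 3 were tested, and 0 rose and 2 fell (median log2 -0.66, and -0.16 without hypoxia 2 and 3), with 0 and 1 after correction (median 0.19). TEK, which encodes the TIE2 receptor that pairs with TIE1, held 54.9, 61.7 and 45.3 CPM in control and 32.7, 2.28 and 3.65 CPM in hypoxia (-2.04 ± 0.69, edgeR adjusted p = 0.0257). All 3 hypoxia libraries were below control for TEK, and TEK was at -0.73 (adjusted p = 0.0873) without hypoxia 2 and 3. PTPRB, the phosphatase that acts on TIE2 and VE-cadherin, was at -0.66 (edgeR adjusted p = 0.0194) and at 0.19 after correction. In TEPA+hypoxia against TEPA, without hypoxia 2 and 3, PTPRB was at 0.45. The list medians there were 0.34 for the 3 angiopoietin and Tie genes and -0.14 for the 19 transcription factors.

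Of 19 genes of endoglin and TGF-beta/BMP signalling 15 were tested, and 4 rose and 8 fell (median log2 -0.36, and -0.15 without hypoxia 2 and 3). With the correction 6 were higher and 5 lower (median -0.01). The ligand gene TGFB1 rose by 1.77 ± 0.32, the target ID1 by 1.19 ± 0.23 and the endoglin partner ACVRL1, the receptor ALK1, by 0.66 ± 0.14, while TGFBR1 was at -2.09. Each had an edgeR adjusted p of 0.00601, and ACVRL1 held 269, 248 and 288 CPM in control and 329, 498 and 449 CPM in hypoxia. From hypoxia 1 alone the values were 0.62 for TGFB1, 0.49 for ID1, 0.29 for ACVRL1 and -1.54 for TGFBR1, none of them called. After correction they were 1.16, 0.23, 0.64 and -1.27, each still called.

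Of the 29 tested among other endothelial markers, 8 rose and 9 fell (median log2 0.05, and -0.03 without hypoxia 2 and 3), and 4 and 5 after correction (median -0.03). The VEGF receptor gene KDR held 10.2, 12.1 and 8.23 CPM in control and 5.24, 2.87 and 4.37 CPM in hypoxia, with no overlap (-1.29 ± 0.22, edgeR adjusted p = 0.00601). Its value from hypoxia 1 alone was -0.96 (adjusted p = 0.0681). NOS3, the endothelial nitric oxide synthase gene, held 369, 377 and 367 CPM in control and 463, 455 and 486 CPM in hypoxia. Here hypoxia 1 was as high as hypoxia 2 and 3, and NOS3 was at 0.34 ± 0.08 (edgeR adjusted p = 0.00691) and, from hypoxia 1 alone, at 0.32 (adjusted p = 0.0868). Its TEPA libraries were also above control, at 479, 459 and 429 CPM, without passing over all genes (0.30 ± 0.08, adjusted p = 1.00). Of the 10 genes of the Weibel-Palade body, the granule that stores VWF, 4 rose and 3 fell (median log2 -0.13, and 0.03 without hypoxia 2 and 3). After correction 4 were higher and 0 lower (median 0.17). CD63 was at 0.96 and RAB3B at -0.67, with 0.22 and -0.29 from hypoxia 1 alone and 0.18 and 0.15, neither called, after correction. None of the genes of these lists passed in hypoxia against control without hypoxia 2 and 3, and none passed in TEPA+hypoxia against TEPA with all libraries.

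Among markers of other cell types, 4 of 8 tested epithelial genes rose and 1 fell (median log2 0.62, and -0.06 without hypoxia 2 and 3), with 2 and 1 after correction (median 0.11). KRT18, KRT7 and KRT8 were at 1.25, 1.14 and 0.90, at 0.34, 0.30 and 0.14 from hypoxia 1 alone, and at 0.51, 0.18 and 0.69 after correction, where KRT7 was no longer called. Of 11 tested mesenchymal and mural genes 4 rose and 5 fell (median log2 -0.07), with 1 and 4 after correction. In that list VIM was at 0.44 and FN1 at -1.12, with 0.08 (not called) and -0.57 after correction. Of 2 tested leukocyte genes 1 rose, CD68 at 0.26, and the correction called CD68 lower (-0.26, edgeR adjusted p = 0.0475) together with LYZ (-0.57). No marker in these 3 lists passed without hypoxia 2 and 3, where the medians of the 12 mesenchymal and 3 leukocyte genes tested were -0.11 and 0.00.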

How the data were processed

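The deposited table held raw read counts per gene symbol, 1 column per library, made by the authors from reads aligned with HISAT2 2.1.0 on GRCh38, with DESeq also named, per the submitters' processing notes. Which counter, annotation and strand option were used is not given in the sources used here. Poly(A) RNA was selected and a directional kit was used, per the labels' protocols. Counts were analysed with edgeR 4.0.16 in R 4.3.3: filterByExpr by group, TMM scaling, 1 mean per group over 12 libraries, the quasi-likelihood F-test (two-sided) and Benjamini-Hochberg adjustment over all 14447 genes tested, with calls at an adjusted p under 0.05. The tested genes held 99.9% of the counts. The test was checked on simulated counts with the same spread in every library. That setting held no split of hypoxia 1 from hypoxia 2 and 3, so the check does not cover that feature. Alternatives were RLE, upper quartile and total scaling, other filters, DESeq2 1.42.0, limma-voom (limma 3.58.1), a replicate block, a GC and length correction (splines with 4 degrees of freedom, 13004 genes, 90.0% of those tested), fewer groups, and libraries left out. Coordinates, lengths and GC content are from GENCODE 29 on GRCh38, which may not be the authors' annotation, and 31859 symbols matched it, 893 of them through a RefSeq synonym. Pairs of libraries within a group were compared by a chi-square of their counts per degree of freedom. It was lowest for TEPA+hypoxia 1 and 2, at 1.70, and 3.85 to 161 for the other such pairs. Pairs across groups were not compared in this way. All 10 listed genes are named in every comparison. From each other list, up to 4 tested genes with the smallest p in hypoxia against control are named, with TEK, FLI1, KDR, ACVRL1, CTNNB1 and NOS3 and the 3 genes most correlated with PECAM1, ERG and VWF (log2 CPM with a prior count of 2, mean of at least 5 CPM). Genes and lists were chosen with earlier results of these data known. Some items that this rule would name are not reported here.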

Additional observations from a re-analysis of the deposited data

Results flagged for a closer look

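The response to hypoxia differed between cells with and without TEPA, by the edgeR interaction test over all genes, for 3 of the 9 genes tested. The interaction was -1.47 (log2) for ENG, -1.72 for EGFL7 and -0.58 for ESAM, with adjusted p = 0.0236, adjusted p = 0.0236 and adjusted p = 0.0268, in a test that called 21.5% of all genes lower and 17.3% higher. In each, hypoxia 2 and 3 held the highest levels, and without them no interaction was called and the values were -0.46, -0.69 and -0.26. With the GC and length correction ENG and EGFL7 were at -0.91 and -0.64 and ESAM at 0.17. All 3 calls were lost when any of control 1, control 2, hypoxia 3, TEPA 2 or TEPA+hypoxia 3 was left out.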

How the results depend on the processing

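Of the 9 genes tested, 6 were called in hypoxia against control, 6 in TEPA+hypoxia against hypoxia, 3 in the interaction and 0 in the other comparisons. With only the 2 groups compared the counts were 0 in hypoxia against control and 3 in TEPA+hypoxia against hypoxia. Without hypoxia 2 and 3 they were 0, 1 and 0 in the interaction, and over all genes 4254 higher and 4016 lower in hypoxia against control became 43 and 35. Leaving out 1 library gave 0 to 7 calls in the interaction and moved no other count by over 1.5 times. Among values called with or without it, the GC and length correction turned the sign in hypoxia against control of PECAM1 (0.19) and ESAM (-0.092), in TEPA+hypoxia against hypoxia of PECAM1 (-0.34), ERG (-0.16) and ESAM (0.11), and in the interaction of PECAM1 (-0.45) and ESAM (0.17). With the replicate block added to the correction these were 0.19, -0.093, -0.33, -0.16, 0.11 and 0.17, in the same order without PECAM1 in the interaction, where 1 gene was called. The cause was not tested. The replicate block alone left 6, 6 and 3 calls. The numbers were not taken to pair libraries, since the labels do not say that a number marks a shared culture or day. Deviations of same-numbered libraries correlated at 0.102, -0.340 and 0.319 in hypoxia against control, and at -0.360 to 0.217 in the other comparisons. With hypoxia 1 apart from hypoxia 2 and 3, these correlations cannot show whether libraries share a culture. RLE, upper quartile scaling, filters, DESeq2 and limma-voom changed no count. Scaling by totals gave 7 calls in TEPA+hypoxia against hypoxia and 2 in the interaction. In all, 968 single-gene values kept sign and call, 47 lost a call, 8 gained one, 13 turned sign where the value or its alternative was called, and 35 turned sign with a call in neither. The all-gene split in TEPA+hypoxia against hypoxia was 4467 higher and 4420 lower, 5683 and 2951 with totals, and 2365 and 4051 with the correction. In the interaction it was 2498 and 3113, 2318 and 1809, and 640 and 1986.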
